A study of Mus musculus with 10 samples.

Results

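Core and linker histone genes were measured in RNA-seq libraries of the mouse anterior fontanelle (AF), the soft gap where the frontal and parietal bones of the skull have not yet met. Members were the rows of the estimated count table that are typed as protein-coding and carry a histone symbol of the H1f, H2ac, H2bc, H3c or H4c series or of the older Hist1 to Hist4 series. The rule used names and gene type and no expression value. It gave 62 of 23080 genes: 8 H1, 15 H2A, 16 H2B, 11 H3 and 12 H4 genes. It also matched 2 rows of another type, *H2ac14* and *Hist1h2al*, which were left out. All 62 members had the position of a gene in GENCODE M21, which annotates GRCm38 (mm10).

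Nucleosomes hold DNA on a core of H2A, H2B, H3 and H4, and linker histone H1 binds where the DNA enters and leaves. The replication-dependent histone genes are clustered, have few or no introns and are transcribed in S phase, and their mRNAs end in a conserved stem-loop in place of a poly(A) tail. The stem-loop is bound by SLBP, and the cut behind it is made by a complex that holds the U7 snRNP with its proteins LSM10 and LSM11. Replication-independent histones are made from polyadenylated mRNAs throughout the cell cycle and in cells that no longer divide. Some replication-dependent genes can also make polyadenylated mRNAs.

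The label of the gene group did not hold for every member. *H1f0*, which is typical of differentiated and resting cells, *H1f10* (H1X) and the oocyte linker histone *H1f8* match the symbol rule but are not replication-dependent. They are given apart from the other 59 members. *H2bc1* encodes a testis-specific H2B and was kept in its class.

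AF samples, in which bone and suture tissue were kept and skin and brain were taken off, came from E18.5 (embryonic day) embryos, 5 animals labelled WT and 5 labelled Wnt1-Cre; Fgfr2fl/fl, in which Cre is active in the neural crest lineage and removes the receptor gene *Fgfr2*. The study calls the first group littermate controls and describes the groups as littermate pairs. The labels give no further allele for the controls and do not say which libraries are littermates, so litter was not part of the main model. The AF region also holds cells that do not come from the neural crest, and these keep *Fgfr2*. The question put by this design was how loss of *Fgfr2* in the neural crest changes expression in the AF. The labels name Wnt1-Cre in the second group only, so effects of the Cre transgene and of the loss of *Fgfr2* cannot be told apart. The labels name total RNA as the starting molecule, and whether poly(A) RNA was selected or ribosomal RNA was removed is not given in the sources used here.

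*Fgfr2* was checked first. It had 200, 235, 176, 195 and 192 CPM (counts per 1000000, with library sizes scaled by TMM) in the libraries labelled WT and 299, 273, 325, 338 and 357 CPM in those labelled Wnt1-Cre; Fgfr2fl/fl. The groups did not overlap, and the level was higher where the label names the deletion (log2 fold change 0.67 ± 0.0902 (SE), edgeR adjusted p = 0.0487), although the call was lost in 11 of 19 alternatives, the replicate block among them. A count over the whole gene does not separate deleted exons from the rest, so it does not check the deletion. The groups are therefore called control-labelled and mutant-labelled below. Depth was 20774667 to 28515434 estimated counts per library. The osteoblast markers summed to between 65525 and 77152 CPM in the control-labelled and between 53678 and 77920 CPM in the mutant-labelled libraries, so bone was well represented. None of 53 markers in 9 cell type lists was at 0 in any library. A single ribosomal RNA gene, *CT010467.1*, took 25.99%, 28.1%, 32.1%, 25.9% and 20.8% of the counts in control-labelled replicates 1 to 5 and 33.2%, 28.5%, 33.0%, 18.6% and 33.5% in mutant-labelled replicates 1 to 5.

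The histone stem-loop is the sequence that sets most members apart from other mRNAs, and its forms among the members are shown here for that reason. It was searched behind the stop codon of the GENCODE M21 transcripts and found in 38 of the 62 members, 24 to 61 bases behind the stop codon (median 34.5). It had 6 forms of 16 bases. Each is given 5′ to 3′ as DNA, with the stem arms in capitals and the loop in lower case, after the member with the highest level.
H1f2: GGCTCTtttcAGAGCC
H4c8: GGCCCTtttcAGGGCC
H3c6: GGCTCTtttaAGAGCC
H4c9: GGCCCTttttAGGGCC
H4c2: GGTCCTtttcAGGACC
H2ac20: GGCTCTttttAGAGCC
The form shown for *H1f2* was the commonest, with 22 members, among them 9 H2A, 6 H2B, 4 H3 and 3 H1 genes. The H4 genes stood apart. All 10 H4 genes with a stem-loop had an arm of the *H4c8*, *H4c9* or *H4c2* form (6, 2 and 2 genes), and none of the 28 sites in the other classes had one of these arms. The site of *H1f2* lies at chr13:23739512-23739527 (plus strand), that of *H4c9* at chr13:22040966-22040981 (minus strand) and that of *H4c2* at chr13:23757366-23757381 (plus strand), all in the 3′ UTR of the annotated transcript.

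In the other 24 members no stem-loop was found. For 16 of them neither a stem-loop nor a poly(A) signal was found, and many of these models stop at or near the stop codon, so there was little or nothing to search. The remaining 8 models had a poly(A) signal (AATAAA or ATTAAA) and no stem-loop: *H1f0*, *H1f10*, *H1f8*, *H2bc4*, *H2bc21*, *H4c1*, *Hist1h2bq* and *Hist1h2br*. These models end like that of an ordinary mRNA, and how the transcripts end in these libraries was not measured. The last signal is shown in capitals for the 2 H1 genes with the highest levels and for *H2bc21*, with 12 bases on either side.
H1f0: ttaaaactttaaAATAAAactggaaaggaa
H1f10: ttcctggggcgcAATAAAcggttccaacct
H2bc21: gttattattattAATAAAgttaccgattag
They lie at chr15:79030471-79030500 (plus strand), chr6:87980424-87980453 (minus strand) and chr3:96223705-96223734 (plus strand) in GRCm38, within 3′ UTRs.

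The members lie in few places. The main locus on chromosome 13 held 51 of them between positions 21715763 and 23934156, in a block of 22 and a block of 29 genes. A second cluster of 8 genes lay on chromosome 3 (96220361 to 96270132). *H1f0* was alone on chromosome 15 (79028450 to 79030504), and *H1f10* and *H1f8* were on chromosome 6. Of the 62 genes, 56 had models of single exons only. Neighbouring H2A and H2B genes formed 11 divergent pairs, with annotated starts 176 to 302 bases apart.

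Histone counts in these libraries came from few genes. As it is not known whether poly(A) RNA was selected, which would lose mRNAs that end in a stem-loop, the shares describe the libraries and not the makeup of histone mRNA in the tissue. The 62 members summed to 349 ± 35.5 CPM (SD, n = 5) in the control-labelled and 311 ± 30.7 CPM (SD, n = 5) in the mutant-labelled libraries. *H1f0* alone was 59.4% of the sum, 8 members above 5 CPM made up 92.9% of it, and 50 of the 62 members were below 1 CPM. The 59 members without *H1f0*, *H1f10* and *H1f8* were 28.8% of it. In 27 members at least 1 library had no count after rounding.

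**Figure D1:**
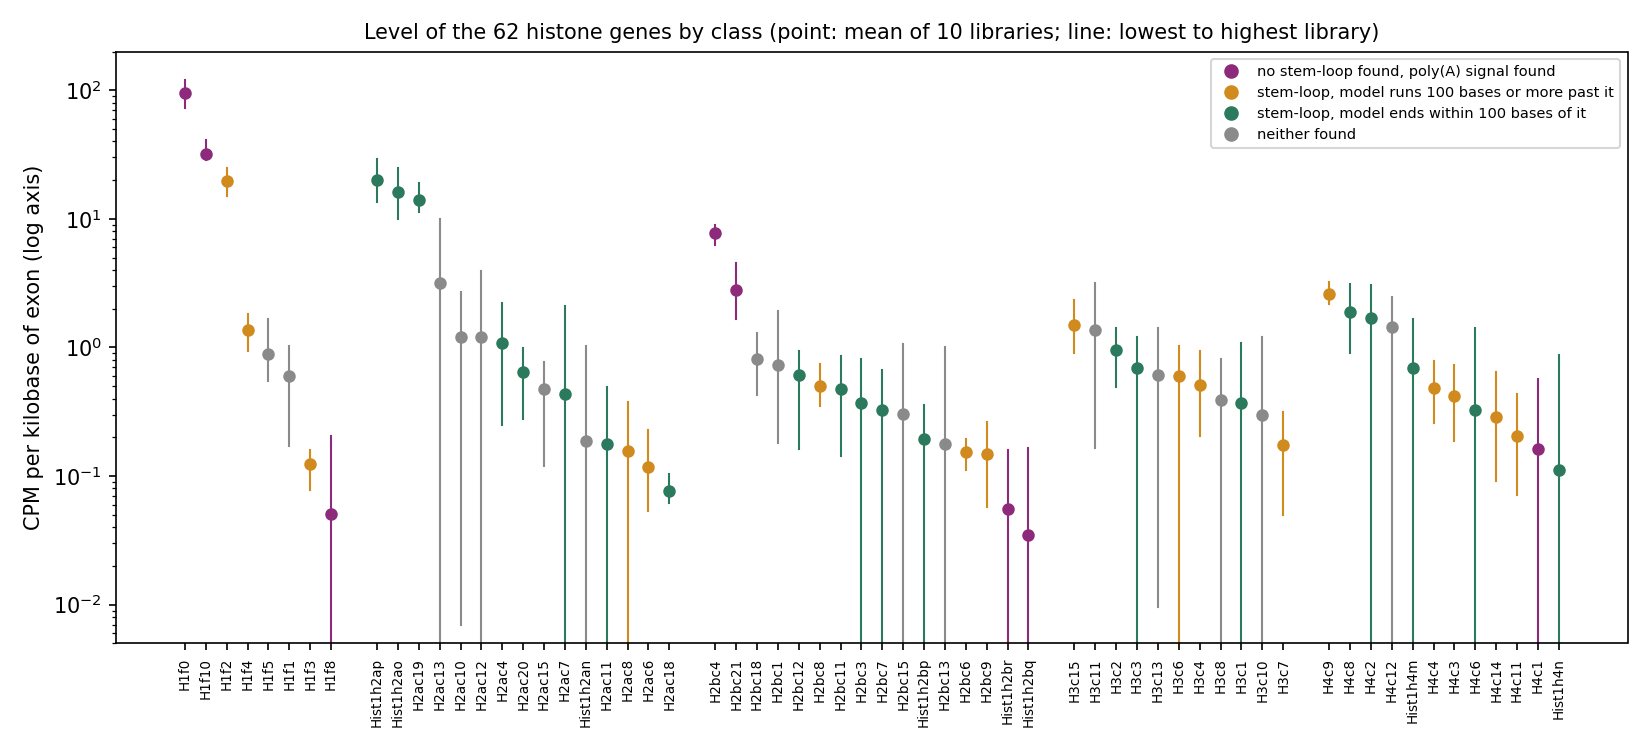
Mean level of each of the 62 members in CPM per kilobase of exon on a log axis, by histone class. Points are means over 10 libraries, lines run from the lowest to the highest library (cut at the bottom of the axis) and colours give what was found behind the stop codon of the gene model. *H1f0* (95.4 CPM per kb), *H1f10* (31.8), *Hist1h2ap* (19.9), *H1f2* (19.7), *Hist1h2ao* (16.2) and *H2ac19* (13.99) lie above all others, and the highest H3 or H4 gene, *H4c9*, is at 2.61 CPM per kb.

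Per kilobase of exon, which allows levels of different genes to be compared, *H1f0* was highest at a mean of 95.4 CPM per kb over the 10 libraries. *H1f10* followed at 31.8, *Hist1h2ap* at 19.9, *H1f2* at 19.7, *Hist1h2ao* at 16.2, *H2ac19* at 13.99 and *H2bc4* at 7.83 CPM per kb. *Hist1h2ap* and *H1f2* did not differ beyond their spread. Each class was led by its own few genes: *Hist1h2ap*, *Hist1h2ao* and *H2ac19* in H2A, *H2bc4* and *H2bc21* in H2B, and *H4c9* in H4 (2.61 CPM per kb). The reads of the 3 H2A genes are shared with other copies (0% to 6.93% of their 50-base windows are their own), so their order rests on how shared reads were split, as does that of *H3c11* (12.4%). The top of the H3 genes was *H3c15* at 1.49 CPM per kb, close to *H3c11* at 1.36. The partners of a divergent pair could be far apart in level. *H2bc4* had 9.05 CPM and its partner *H2ac6*, whose start is 251 bases away, had 0.289 CPM. *Hist1h2ap* had 9.59 CPM, and *Hist1h2br* on the other side had 0.123 CPM.

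The kind of gene model did not order the levels by itself. The 8 members with a poly(A) signal and no stem-loop summed to 251 CPM, nearly all of it from *H1f0*, *H1f10*, *H2bc4* and *H2bc21*, yet *Hist1h2bq* and *Hist1h2br* of the same kind had 0.0700 and 0.123 CPM. The 21 members whose model ends within 100 bases of the stem-loop had a median of 0.605 CPM per kb and included *Hist1h2ap*, *Hist1h2ao* and *H2ac19*. The 17 members whose model runs on for 100 bases or more had a median of 0.418 CPM per kb. *H1f2* belongs to this last kind: its model goes on for 840 bases and ends in a poly(A) signal.

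In the comparison of the groups, none of the members passed the test. Of the 62 members, 27 passed the filter on low counts and 35, at 0.0447 to 0.486 CPM, did not. The count of members with an adjusted p under 0.05 in edgeR was 0 of 27, beside 3 of 16267 genes in all (0.0184%), and DESeq2 also gave 0 where it called 0.597% of all genes. At an unadjusted p under 0.05 there were 5 of the 27 members, against 7.49% of all genes. Of these, 4 were lower in the mutant-labelled libraries (3.82% of all genes) and 1 was higher (3.68%). In no member did the groups separate completely, which 1.48% of all genes did. The log2 fold change was above 0 for 14 of the 27 members and for 50.3% of all genes, with a median of 0.01 over the members and 0.00073 over all genes. The filter can pass a member through a single group, which can favour members that differ, so these counts describe the tested members and not all 62.

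**Figure D2:**
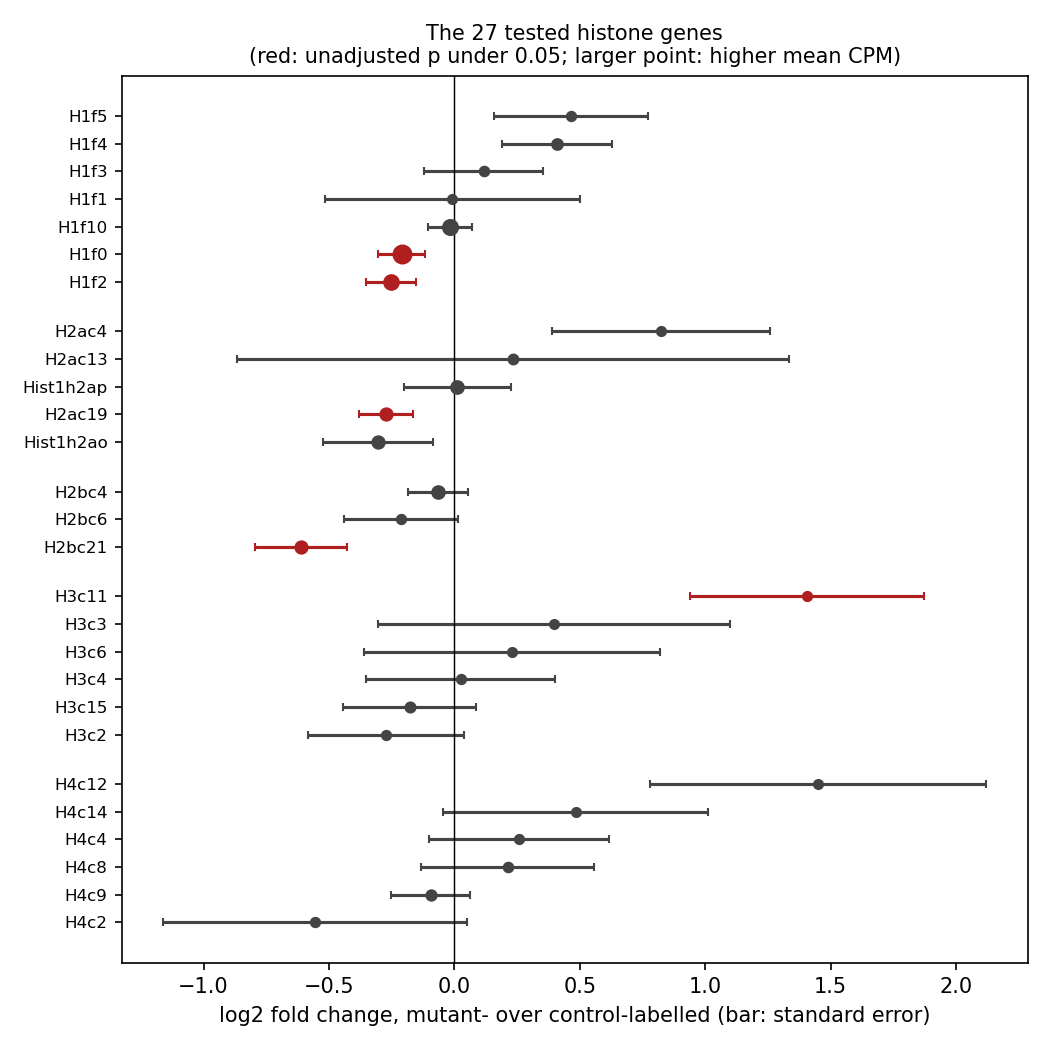
Log2 fold change of mutant-labelled over control-labelled libraries for the 27 tested members by class (n = 5 in each group). Bars are standard errors derived from the edgeR F statistic. The 5 members in red have an unadjusted p under 0.05, none has an adjusted p below 0.454, and the bars are narrow for the members with high counts and wide for H3, H4 and the low H2A genes.

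Linker histones were the best measured class. *H1f0* had 191, 249, 193, 206 and 212 CPM in the control-labelled and 204, 148, 185.2, 181 and 191 CPM in the mutant-labelled libraries. The groups overlapped, with the lowest value in mutant-labelled replicate 2 and the highest in control-labelled replicate 2. The difference was a log2 fold change of −0.21 ± 0.0943 (SE; unadjusted p = 0.0468, edgeR adjusted p = 0.659), and it was −0.13 without control-labelled replicate 2. These libraries also stood apart in cell type markers. Mutant-labelled replicate 2 had the lowest osteoblast sum (53678 CPM), the highest neuron sum (443 CPM) and the lowest sum of the genes of DNA replication and S phase (682 CPM). Control-labelled replicate 2 had the highest skeletal muscle sum (636 CPM, beside 632 CPM in mutant-labelled replicate 1 and 11.99 to 117 CPM in the other 8 libraries). Their part in the levels of *H1f0* and *H1f2* was not tested. *H1f2*, the replication-dependent H1 gene with the highest level, had 35.9, 38.6, 27.9, 33.0 and 31.6 CPM against 31.2, 23.5, 27.2, 26.8 and 31.7 CPM. Its log2 fold change was −0.25 ± 0.1001 (SE; unadjusted p = 0.0278, edgeR adjusted p = 0.634), and again mutant-labelled replicate 2 was lowest. *H1f10* had 38.9 ± 6.01 CPM against 38.4 ± 0.806 CPM (SD, n = 5), with control-labelled replicate 2 at 49.5 CPM and the other 9 libraries between 35.1 and 39.2 CPM. *H1f4* stood at 2.26 ± 0.592 CPM against 3.02 ± 0.675 CPM (SD, n = 5; log2 fold change 0.41 ± 0.218 (SE), edgeR adjusted p = 0.687).

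Together, the 5 replication-dependent H1 genes summed to 37.5 ± 4.28 CPM in the control-labelled and 33.3 ± 4.04 CPM in the mutant-labelled libraries (SD, n = 5), and *H1f0*, *H1f10* and *H1f8* summed to 249 ± 28.9 CPM against 220 ± 21.04 CPM (SD, n = 5). Both sums overlapped between the groups. The lower replication-dependent sum came from *H1f2* alone, since the other 4 genes summed to 4.14 ± 1.07 CPM against 5.19 ± 1.05 CPM (SD, n = 5; log2 difference 0.34 ± 0.221 (SE)), and the mean of log2 CPM over the 5 genes differed by 0.19 in place of −0.18 for the sum. *H1f8* had at most 0.245 CPM in any library.

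**Figure D3:**
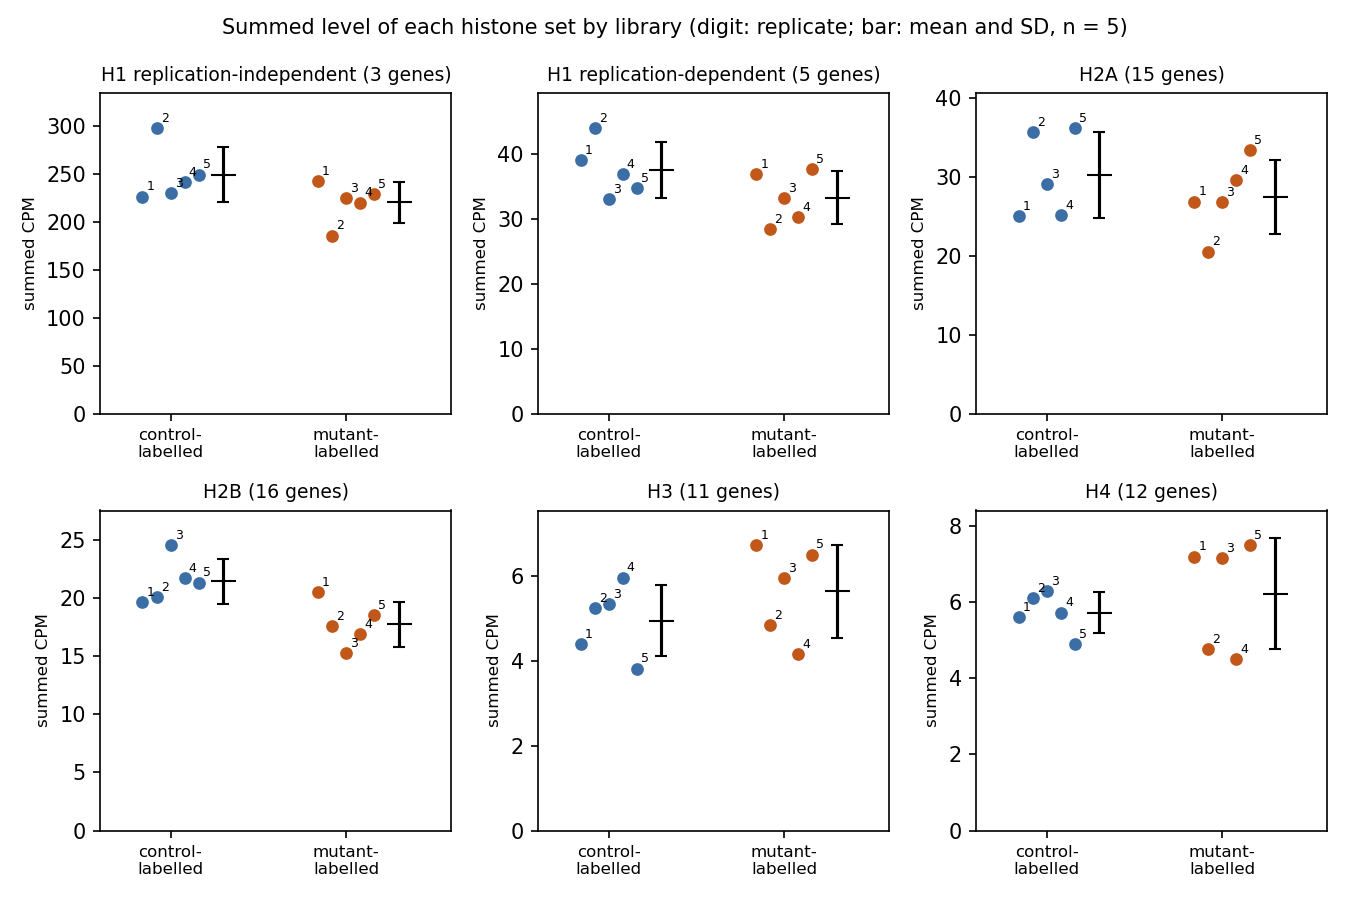
Summed CPM of each histone set in each of the 10 libraries, with digits for replicates and bars for the mean and SD (n = 5). The groups overlap in all 6 sets, and in H4 the mutant-labelled replicates 1, 3 and 5 (7.15 to 7.51 CPM) lie above replicates 2 and 4 (4.77 and 4.51 CPM).

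Among the H2B genes, *H2bc21* had the smallest p of all members. Its level was 5.92, 9.02, 11.9, 8.00 and 9.53 CPM in the control-labelled and 6.91, 5.63, 4.37, 5.28 and 6.89 CPM in the mutant-labelled libraries. All but control-labelled replicate 1 lay above the mutant-labelled libraries. The log2 fold change was −0.61 ± 0.183 (SE; unadjusted p = 0.00627), and the edgeR adjusted p of 0.454 did not pass. *H2bc21* is the member on the chromosome 3 cluster whose model has a poly(A) signal and no stem-loop, and all of its 50-base windows were its own. *H2bc4*, the H2B gene with the highest level, was at 9.25 ± 1.28 CPM against 8.84 ± 1.09 CPM (SD, n = 5; log2 fold change −0.07 ± 0.120 (SE), edgeR adjusted p = 0.932). Its log2 fold change ran from −0.14 without control-labelled replicate 2 to −0.0038 without mutant-labelled replicate 3. *H2bc6* was low, at 0.739 ± 0.139 CPM against 0.628 ± 0.0880 CPM (SD, n = 5). The 16 H2B genes summed to 19.6, 20.1, 24.6, 21.7 and 21.3 CPM in the control-labelled and 20.5, 17.6, 15.3, 16.9 and 18.48 CPM in the mutant-labelled libraries. Only mutant-labelled replicate 1 reached into the range of the control-labelled libraries, and without *H2bc4* and *H2bc21* the other 14 genes summed to 3.31 ± 0.414 CPM against 3.08 ± 0.470 CPM (SD, n = 5).

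Among the H2A genes, *H2ac19* had 7.30, 7.43, 8.03, 7.58 and 10.1 CPM against 6.99, 6.42, 6.01, 6.63 and 7.35 CPM. The groups overlapped in 1 mutant-labelled and 1 control-labelled library, and the log2 fold change was −0.27 ± 0.109 (SE; unadjusted p = 0.0278, edgeR adjusted p = 0.634). It was −0.17 without control-labelled replicate 5, the library with the highest value. *H2ac19* has no sequence of its own: each of its 50-base windows also occurs in *H2ac18* and in *Gm20634*, a processed transcript that overlaps *H2ac18* and is no member. *Gm20634* itself was at 13.4 ± 1.79 CPM against 10.1 ± 1.58 CPM (SD, n = 5). *Hist1h2ap* was at 9.56 ± 2.05 CPM against 9.63 ± 3.04 CPM and *Hist1h2ao* at 8.58 ± 2.47 CPM against 6.94 ± 1.71 CPM (SD, n = 5). The log2 fold changes were 0.01 ± 0.214 and −0.31 ± 0.219 (SE; edgeR adjusted p = 0.995 and 0.778), and that of *Hist1h2ao* was −0.44 without control-labelled replicate 4 and −0.15 without control-labelled replicate 5. *H2ac4*, at 3 to 24 counts a library, had 0.371 ± 0.250 CPM against 0.660 ± 0.251 CPM (SD, n = 5; edgeR adjusted p = 0.687). All 15 H2A genes summed to 30.2 ± 5.49 CPM against 27.4 ± 4.71 CPM (SD, n = 5).

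H3 and H4 genes were low, and their tests rest on few counts. *H3c11* had 9, 2, 9, 7 and 11 counts in the control-labelled and 24, 21, 30, 10 and 9 counts in the mutant-labelled libraries, or 0.310 ± 0.153 CPM against 0.809 ± 0.415 CPM (SD, n = 5). The log2 fold change was 1.41 ± 0.465 (SE; unadjusted p = 0.0110, edgeR adjusted p = 0.523), and 3 mutant-labelled libraries lay above all others. *H4c12* had 0, 10, 6, 0 and 14 counts against 14, 17, 14, 14 and 17, with a log2 fold change of 1.45 ± 0.670 (SE; unadjusted p = 0.0520, edgeR adjusted p = 0.659). This value was 1.13 without control-labelled replicate 1, 2.08 without control-labelled replicate 5 and 2.74 in limma voom with quality weights. Only 12.4% of the windows of *H3c11* and 28.5% of those of *H4c12* were found in no other gene. *H4c9*, the steadiest member of these classes, was at 1.96 ± 0.284 CPM against 1.84 ± 0.184 CPM (SD, n = 5; log2 fold change −0.09 ± 0.157 (SE), edgeR adjusted p = 0.926), with a log2 fold change of −0.15 without control-labelled replicate 5 and −0.015 without control-labelled replicate 3. For *H3c15*, *H3c4*, *H3c2*, *H4c8* and *H4c2* the log2 fold changes were −0.18, 0.03, −0.27, 0.21 and −0.56, and the edgeR adjusted p ranged from 0.870 (*H4c2*) to 0.994 (*H3c4*). A single library moved several of them: *H4c8* was at 0.02 without mutant-labelled replicate 3 and 0.41 without control-labelled replicate 3, *H4c2* at −0.89 without mutant-labelled replicate 5 and −0.23 without mutant-labelled replicate 4, and *H3c2* at −0.43 when control-labelled replicate 1 was left out and −0.11 when mutant-labelled replicate 4 was.

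As classes, the 11 H3 genes summed to 4.39, 5.25, 5.33, 5.96 and 3.82 CPM in the control-labelled and 6.73, 4.83, 5.94, 4.17 and 6.501 CPM in the mutant-labelled libraries. The 12 H4 genes summed to 5.60, 6.11, 6.29, 5.72 and 4.90 CPM against 7.20, 4.77, 7.15, 4.51 and 7.51 CPM. Both classes were high in mutant-labelled replicates 1, 3 and 5, with control-labelled replicate 4 as high for H3, and low in control-labelled replicate 5 and mutant-labelled replicate 4, with mutant-labelled replicate 2 as low for H4. A class sum of H3 rested on 90.3 to 153 counts per library and one of H4 on 106 to 178.

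Mutant-labelled replicates 1, 3 and 5 had the highest shares of ribosomal RNA, and control-labelled replicate 5 and mutant-labelled replicate 4 the lowest. Control-labelled replicate 4 (25.9%) and mutant-labelled replicate 2 (28.5%) lay between them. Over the 10 libraries, which share one tissue and one protocol, the summed H4 level went with the share of *CT010467.1* (Pearson's r = 0.87, Spearman's rho = 0.87, and r = 0.81 without the 2 libraries farthest from the median share). For H3 the values were r = 0.83, rho = 0.78 and r = 0.67. The relation was not limited to H3 and H4. The 4 low replication-dependent H1 genes, *H1f1*, *H1f3*, *H1f4* and *H1f5*, summed to 3.17, 5.44, 5.09, 3.85 and 3.15 CPM in the control-labelled and 5.62, 4.86, 5.94, 3.50 and 6.02 CPM in the mutant-labelled libraries, with r = 0.88, rho = 0.89 and r = 0.86. All 54 members below 5 CPM together gave r = 0.84, rho = 0.82 and r = 0.76. Without H3 and H4, the 31 low H1, H2A and H2B members gave r = 0.73, rho = 0.79 and r = 0.62. It was weaker among the H2A genes, where the 12 other than *Hist1h2ap*, *Hist1h2ao* and *H2ac19* gave r = 0.53, rho = 0.56 and r = 0.51, and the median r of single members was 0.099 in H2A and 0.073 in H2B.

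**Figure D4:**
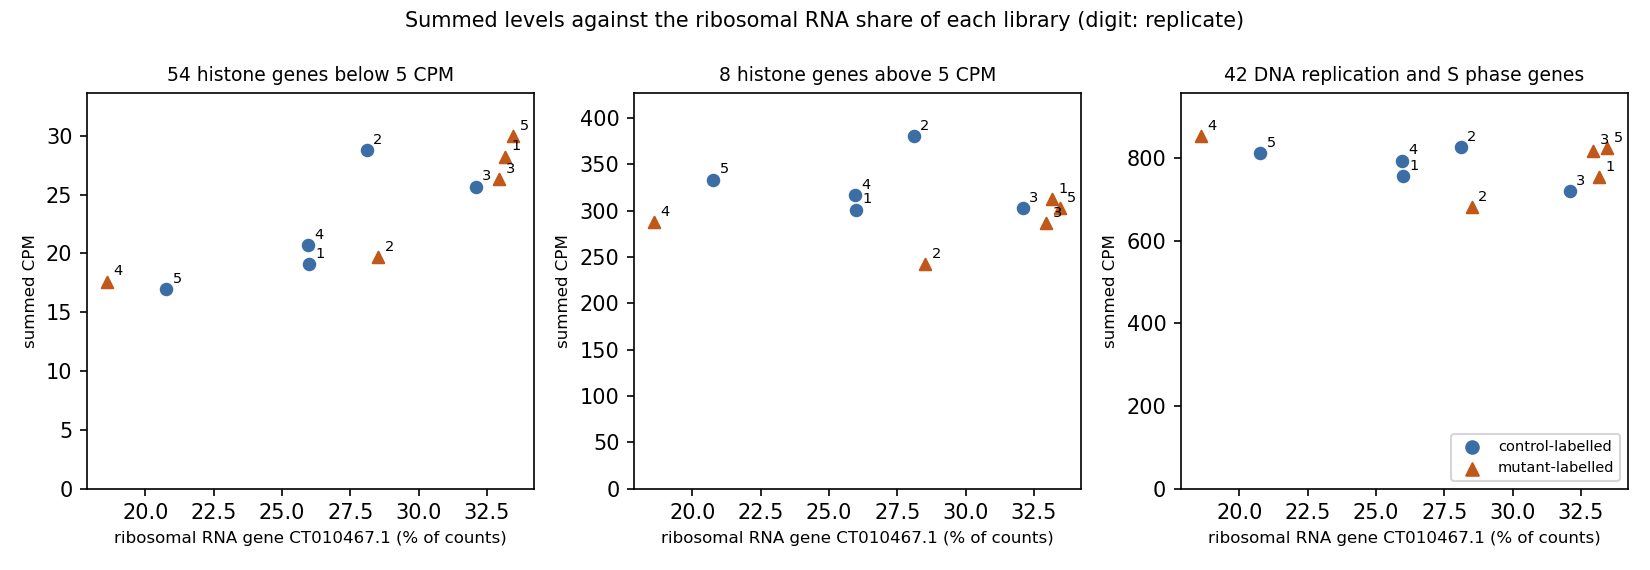
Summed CPM of the 54 members below 5 CPM, of the 8 members above 5 CPM and of 42 genes of DNA replication and S phase, each plotted against the share of counts in the ribosomal RNA gene *CT010467.1*, with 1 point per library. The low members run from 16.9 CPM (control-labelled replicate 5, share 20.8%) to 29.99 CPM (mutant-labelled replicate 5, share 33.5%), while the other panels show no such slope.

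The abundant members did not share this pattern. The 8 members above 5 CPM gave r = −0.10, rho = −0.18 and r = −0.15 without the 2 farthest libraries, and the 42 genes of DNA replication and S phase gave r = −0.35, rho = −0.26 and r = 0.13. Within H2B, the 14 genes other than *H2bc4* and *H2bc21* had r = 0.71, which rested on the 2 farthest libraries (r = −0.02 without them). Taken singly, 10 of the 27 tested members had r above 0.5, a larger share than the 10.7% among the 16267 genes tested. With scaling to the library size alone, where a higher ribosomal share lowers all other genes, the 54 low members still gave r = 0.70 and the 8 abundant ones r = −0.58, and with ribosomal RNA genes and *Lars2* left out of the scaling r = 0.84. The short RNAs *Rn7sk* and *Rpph1*, looked up after this pattern was seen, had r = −0.86 and −0.85 and rho = −0.66 and −0.68. Without the 2 farthest libraries their r was −0.58 and −0.61. The 5 CPM limit was set after the values were seen, and what links the low members to the ribosomal share was not tested. In the groups, the 54 low members summed to 22.2 ± 4.87 CPM in the control-labelled and 24.3 ± 5.44 CPM in the mutant-labelled libraries (SD, n = 5), a log2 difference of 0.13 ± 0.206 (SE), and the 8 abundant ones to 327 ± 32.7 CPM against 286 ± 26.9 CPM (SD, n = 5), a difference of −0.19 ± 0.0887 (SE).

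Many members cannot be told from each other in reads of 50 bases. The share of a gene's 50-base windows that occur in no other GENCODE M21 transcript ran from 0% for *H2ac19* to 100% for 6 members (*H1f0*, *H1f1*, *H1f5*, *H1f10*, *H1f8* and *H2bc21*), with a median of 49.0%, and 18 members were under 25%. In those 18 the coefficient of variation (CV) of the CPM over the 10 libraries had a median of 96.5%, against 54.6% in the 28 members with 25% to 75% and 37.6% in the 16 with 75% or more. The median level also differed between these sets, at 0.201, 0.299 and 0.597 CPM, and the parts of level and of shared sequence in the spread were not separated.

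**Figure D5:**
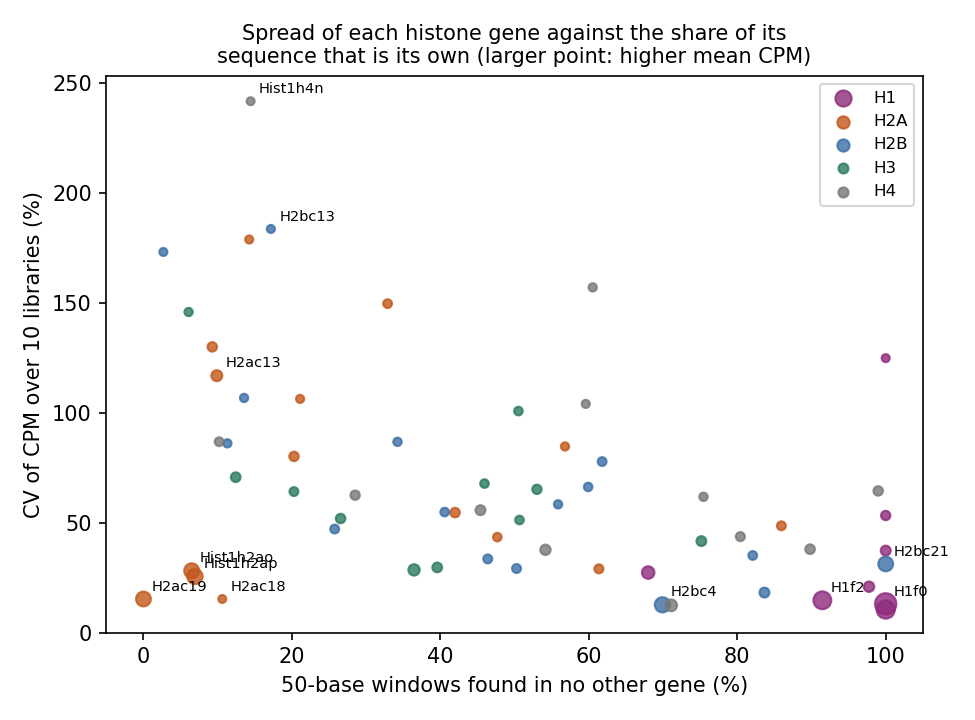
Share of 50-base windows found in no other gene (horizontal) against the CV of the CPM over 10 libraries (vertical) for the 62 members, coloured by class, with larger points for higher levels. Members with few windows of their own reach the highest CV (*Hist1h4n*, 241%), while the abundant *H2ac19*, *Hist1h2ap* and *Hist1h2ao* stay between 15.3% and 28.1%.

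*H2ac13*, singled out after its values were seen, had 0, 115, 32, 0 and 8 counts in the control-labelled and 74, 2, 17, 12 and 46 counts in the mutant-labelled libraries, a CV of 117% with 9.88% of its windows its own. Its counts cannot be read as a level of that gene. *H2ac18* and *H2ac19*, a pair on chromosome 3, showed the splitting most plainly, since the count of *H2ac18* was 0.00605 of that of *H2ac19* in every library. *Hist1h2ap* and *Hist1h2ao* share 93.1% of the windows of the former. With members joined where they share 50% or more of their windows, 11 H2A genes led by this pair summed to 21.6 ± 4.82 CPM in the control-labelled and 20.1 ± 4.38 CPM in the mutant-labelled libraries (SD, n = 5), with a CV of 21.1% beside a median of 84.6% for its members. A family of 11 H2B genes had a CV of 10.6% beside 58.3%, one of 9 H3 genes 28.1% beside 65.1% and one of 6 H4 genes 24.9% beside 58.7%. None of these family sums separated the groups.

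Genes that make and handle histone mRNA were examined next. Of 39 genes of histone mRNA processing and transcription, 36 were tested, 24 with a log2 fold change above 0 (50.3% of all genes were) and 12 below, with a median of 0.02, and none had an adjusted p under 0.05 in edgeR or in DESeq2. At an unadjusted p under 0.05, which 7.49% of all genes had, there was 1, *Eri1*, the exonuclease that trims and degrades histone mRNA ends (18.03 ± 0.956 CPM against 16.3 ± 0.653 CPM, SD, n = 5; log2 fold change −0.15 ± 0.0580 (SE), edgeR adjusted p = 0.634). *Cstf3* and *Wdr33*, of the cleavage machinery, had log2 fold changes of 0.13 and 0.07 (edgeR adjusted p = 0.742 and 0.79997). That of *Wdr33* ran from 0.043 to 0.095 with single libraries left out and was 0.025 with library size alone. *Slbp*, which binds the stem-loop, was at 25.01 ± 1.18 CPM against 25.3 ± 1.74 CPM (SD, n = 5), and *Npat*, the activator of histone gene transcription, at 19.4 ± 1.03 CPM against 19.1 ± 1.05 CPM (SD, n = 5). *Casp8ap2*, a factor of the histone locus body, had a log2 fold change of −0.0016, and the U7 snRNP genes *Lsm10* and *Lsm11* had 0.02 and 0.15, the latter between 0.083 and 0.24 with single libraries left out. *Zfp473*, which works with the U7 snRNP, was low, at 0.604 ± 0.241 CPM against 0.471 ± 0.157 CPM (SD, n = 5).

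All 42 genes of DNA replication and S phase were tested, 28 with a log2 fold change above 0 (50.3% of all genes were) and 14 below, with a median of 0.01 and no adjusted p under 0.05 in edgeR or DESeq2. At an unadjusted p under 0.05, which 7.49% of all genes had, there were 4: *E2f2* and *Rrm2* were higher and *Tyms* and *Ccne2* lower in the mutant-labelled libraries. *E2f2*, a transcription factor of the G1 to S transition, was at 3.81 ± 0.464 CPM against 4.93 ± 0.895 CPM (SD, n = 5; edgeR adjusted p = 0.634). The nucleotide enzymes *Tyms* and *Rrm2* had log2 fold changes of −0.19 and 0.18 (edgeR adjusted p = 0.634 and 0.649). *Pcna*, the sliding clamp, had 33.4 ± 1.98 CPM against 34.5 ± 4.01 CPM, and the proliferation marker *Mki67* 113 ± 11.9 CPM against 113 ± 14.2 CPM (SD, n = 5). In a bulk sample, a change in the number of cells in S phase and a change in histone mRNA per cell could not be told apart. All 24 histone chaperone genes were tested, 11 above 0 and 13 below, with none at an unadjusted p under 0.05. The smallest p-values belonged to *Ipo4*, *Chaf1b* and *Nasp*, with log2 fold changes of 0.10, −0.23 and 0.15 (edgeR adjusted p = 0.718, 0.726 and 0.749). *Chaf1b* was at −0.33 without control-labelled replicate 1 and −0.12 without control-labelled replicate 5, and *Nasp* at 0.098 when mutant-labelled replicate 4 was left out and 0.23 when mutant-labelled replicate 1 was.

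In the list of replication-independent histones, 1 gene passed the test. *H2az2*, which encodes the variant H2A.Z.2, had 25.3, 27.7, 26.7, 29.8 and 27.7 CPM in the control-labelled and 12.9, 14.1, 14.6, 14.9 and 12.7 CPM in the mutant-labelled libraries. It fell by 0.99 on the log2 scale (SE 0.0656, edgeR adjusted p = 9.09e-05), and the groups did not overlap. By the labels the groups also differ in Wnt1-Cre, so the transgene and the loss of *Fgfr2* cannot be told apart for *H2az2*. *H2az1*, its near relative, was at 68.3 ± 5.98 CPM against 71.0 ± 8.51 CPM (SD, n = 5; log2 fold change 0.06 ± 0.0884 (SE), edgeR adjusted p = 0.921). The H3.3 genes *H3f3a* and *H3f3b* had log2 fold changes of 0.02 and −0.12 (edgeR adjusted p = 0.971 and 0.708). With single libraries left out, *H2az1* ran from 0.019 to 0.12 and *H3f3b* from −0.14 to −0.057. Of the 11 tested genes of this list, 5 were above 0 and 6 below, where 50.3% of all genes were above 0. At an adjusted p under 0.05, which 0.0184% of all genes had, *H2az2* was the single one. At an unadjusted p under 0.05 there were 2, *H2az2* and *H1f0*, both lower, beside 7.49% of all genes (3.82% lower).

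No marker in the 9 cell type lists had an adjusted p under 0.05 in edgeR. Of all genes tested, 50.3% were above 0, 7.49% had an unadjusted p under 0.05 (3.68% higher and 3.82% lower) and 1.48% did not overlap between the groups. All 8 markers of granulocyte and monocyte precursors were above 0, 4 of them at an unadjusted p under 0.05, and they summed to between 32.5 and 88.8 CPM in the control-labelled and between 96.4 and 168 CPM in the mutant-labelled libraries. All 4 markers of fontanelle connective tissue were above 0 and at an unadjusted p under 0.05 (148 to 179 CPM against 199 to 278 CPM), and all 8 osteoblast markers were below 0, 4 at an unadjusted p under 0.05. Of 6 macrophage and osteoclast markers, 1 was above 0 and 5 below (2399 to 3799 CPM against 2648 to 2960 CPM). Of 6 epidermis markers, 4 were tested, 3 above 0 and 1 below, and of 4 neural progenitor markers 2 were above 0 and 2 below. None in these 3 lists had an unadjusted p under 0.05. Erythroid markers summed to between 997 and 2525 CPM against 903 to 1601 CPM. All 5 neuron markers were above 0, none at an unadjusted p under 0.05 (48.3 to 115 CPM against 52.6 to 443 CPM). Of 5 skeletal muscle markers, 4 were tested, 1 above 0 and 3 below, none at an unadjusted p under 0.05 (11.99 to 636 CPM against 13.2 to 632 CPM). The erythroid, macrophage and osteoclast, epidermis, neural progenitor, neuron, muscle and osteoblast sums overlapped between the groups. The part of these cells in the histone levels was not tested.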

How the data were processed

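Total RNA of the AF region was made into stranded libraries (Kapa Stranded Kit), and single 50-base reads were counted by the authors. The authors deposited estimated counts per gene, unscaled, for 10 libraries, with Partek and mm10 named in the submitters' processing notes. Aligner, counting tool and use of strand are not given in the sources used here. Estimated counts were rounded to whole numbers for testing (the design had assumed whole counts). Genes passing edgeR's expression filter (16267 tested, 6813 left out) were TMM-normalized and compared by the quasi-likelihood test without covariates over all 10 libraries (edgeR 4.0.16, limma 3.58.1, DESeq2 1.42.0, R 4.3.3), with Benjamini-Hochberg adjustment over all genes tested and a threshold of 0.05. The SE of a gene's log2 fold change was its absolute value divided by the square root of the quasi-likelihood F statistic. The fit was tested on simulated data. CPM and class sums used unrounded counts, and class sums, family sums and correlations have no test. Exon lengths, stem-loops and 50-base windows came from GENCODE M21 transcripts. Stem-loops were searched with a fixed sequence pattern that did not require the arms to pair. All sites found had arms of 6 bases around a loop of 4.

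Intervals between replicates cover the spread of 5 animals a group. In a chi-square comparison of counts, none of the 20 pairs of libraries within a group agreed within sampling noise. The members and lists were chosen with earlier results of these data known. Members named are the 3 with the highest mean CPM in each class and the 8 with the smallest unadjusted p, with any called or non-overlapping member, and in each list the 3 genes with the smallest p and those called, beside 13 fixed genes. The alternatives were other scalings, filters, tests and thresholds, a replicate block and each library left out.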

Additional observations from a re-analysis of the deposited data

Results flagged for a closer look

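Among 56 groups of 5 libraries examined (9 sums and 19 named members in each group), 4 had a library far from the other 4, about as many as chance gives, which is 1 in 20 groups. *H1f10* stood at 49.5 CPM in control-labelled replicate 2. *H4c2* had 0 CPM in mutant-labelled replicate 4. *H3c11* was at 0.0681 CPM in control-labelled replicate 2, and *H1f4* was at 1.87 CPM in mutant-labelled replicate 4, the library with the lowest ribosomal RNA share.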

How the results depend on the processing

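No histone member was called under any other scaling, filter, tool, block, left-out library or an adjusted p under 0.1, and the 5 members arise at an unadjusted p under 0.05. That threshold gives 4 genes of DNA replication and S phase, 1 of histone mRNA processing and 2 replication-independent histones. The number of all genes called was 3, and it was 1 with scaling to library size alone, 97 with DESeq2 and 1 to 6 with a library left out (6 without mutant-labelled replicate 2, and 1 without any one of control-labelled replicates 3, 4 and 5 and mutant-labelled replicates 1, 3, 4 and 5), so *Fgfr2* (log2 fold change 0.63 to 0.75 over these) lost its call in 11 of 19 alternatives. As same-numbered libraries correlated between −0.21 and 0.14, the numbers were not taken to mark the study's littermate pairs, whose numbering is unknown, and the replicate block called 1 gene.

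Averaging log2 CPM over the members in place of summing weights low genes equally and moved the log2 difference from −0.17 to 0.019 for all members, from −0.15 to 0.040 for the 59 replication-dependent ones, from −0.18 to 0.19 for replication-dependent H1, from −0.18 to −0.40 for *H1f0*, *H1f10* and *H1f8* and from −0.28 to −0.12 for H2B. The other settings, with 5 further histone rows added or the libraries highest in ribosomal RNA left out (both chosen after seeing the data), moved each sum by less than 1 SD. When 1 library was left out, the log2 difference ran from −0.20 to −0.11 for all members and −0.20 to −0.091 for the 59 replication-dependent ones. It ran from −0.21 to −0.11 for *H1f0*, *H1f10* and *H1f8*, −0.21 to −0.038 for H2A, 0.092 to 0.28 for H3 and 0.016 to 0.20 for H4. Signs also turned for single genes that were not called. With limma voom *H1f10* was at 0.013 and *Mki67* at 0.041. With library size alone *Hist1h2ap* was at −0.042, *H3c4* at −0.014, *Slbp* at −0.020, *Lsm10* at −0.014 and *H3f3a* at −0.022, and with the block *Hist1h2ap* was at −0.015. *Casp8ap2* was at 0.0062 with DESeq2 size factors, 0.0074 with at least 10 counts in every library, 0.0023 without ribosomal RNA genes and *Lars2* and 0.0070 with DESeq2, and *Mki67* at 0.00087, 0.0013 and 0.00085 with the first, second and last of these. With single libraries left out, the log2 fold change ran from −0.052 to 0.094 for *H1f10*, −0.16 to 0.13 for *Hist1h2ap*, −0.31 to 0.00088 for *H3c15*, −0.28 to 0.24 for *H3c4*, −0.0049 to 0.057 for *Slbp*, −0.040 to 0.013 for *Npat*, −0.0057 to 0.064 for *Lsm10*, −0.037 to 0.041 for *Casp8ap2*, −0.0076 to 0.097 for *Pcna*, −0.054 to 0.071 for *Mki67* and −0.036 to 0.090 for *H3f3a*. *H2bc21* kept its sign in all 19 alternatives (−0.72 to −0.47), with an adjusted p of 0.187 to 0.817. Members below 1 CPM rest on few counts a library, so a change of a single one of them was not detectable at this depth unless it was large.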
